A study of Danio rerio with 12 samples.

Results

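The respiratory chain genes followed here are the nuclear genes for subunits and assembly factors of the mitochondrial respiratory complexes and the ATP synthase. They were chosen by gene symbol alone, taking every probe set whose symbol starts with nduf, with sdh followed by a letter from a to d, with uqcr, with cox followed by a digit, or with atp5. The rule found 98 probe sets for 90 genes, out of 15502 probe sets and 8793 named genes on the zebrafish array, and each gene was represented by its brightest probe set. The 90 genes comprised 31 subunits of complex I, 4 of complex II, 7 of complex III, 16 of complex IV, 16 of complex V and 16 assembly factors, a class that also holds the ATPase inhibitors *atp5if1a* and *atp5if1b*.

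The arrays compared whole embryos of the TL strain in which the 4 B1 *sox* genes were knocked down together with those that were left uninjected, and the question was which genes depend on B1 *sox* activity in the early embryo. The quadruple knockdown (QKD) embryos carried antisense morpholinos (MOs) that block *sox19a*, *sox19b*, *sox2* and *sox3*, and the wild-type (WT) embryos had received no injection, so the effect of injection itself cannot be told apart from that of the knockdown. Total RNA of pools of whole embryos was taken shortly before gastrulation (30%E, when the cells cover 30% of the yolk), during it (75%E, at 75% cover) and at its end (TB, the tailbud stage), with 2 biological replicates per group and 12 arrays in all. Nothing further says how the replicates arose, so the p-values measure the spread between these samples only. Whole embryos hold many cell types, so fewer cells of a type and less RNA per cell cannot be told apart.

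In the respiratory chain, complex I (NADH dehydrogenase) and complex II (succinate dehydrogenase) pass electrons to ubiquinone, complex III passes them on to cytochrome c, and complex IV (cytochrome c oxidase) passes them to oxygen. Complexes I, III and IV pump protons across the inner membrane, and complex V, the ATP synthase, uses the returning protons to make ATP. A small set of core subunits is encoded by the mitochondrial genome and is not among the genes here; the nuclear subunits must be imported and assembled with them. Complex II has no mitochondrially encoded subunit. The early zebrafish embryo lives on mitochondria and transcripts supplied by the mother, and its own nuclear genes are switched on earlier in the blastula period than the first stage sampled here.

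The signals are linear RMA values, which have no absolute unit. Signals of different probe sets were compared only as brightness on the array, not as amounts of transcript. The members were brighter than most of the array: 81 of the 90 (90%) had a mean signal above the median of all probe sets, and their mean signals ran from 7.39 to 3165. Only *cox4i1l*, *cox6b1*, *ndufa4b* and *sdhaf3* lay below the lower quartile of all probe sets. A further 28 genes that RefSeq names under the rule have no probe set of their own symbol here and were not analysed, among them *ndufs3*, *cox4i1* and the ATP synthase alpha gene *atp5fa1*. A gene is called higher or lower below when its adjusted p in the limma fit over all 12 arrays was under 0.05 after Benjamini-Hochberg adjustment over all 15502 probe sets.

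The arrays had closely similar overall distributions, with medians between 73.5 and 76.6. RMA includes quantile normalization, which makes distributions alike, so this similarity is no check of the samples. The replicates of WT embryos at 75%E stood apart for these genes: replicate 2 was above replicate 1 for all but 18 of the 90, with a median difference of -0.15 (replicate 1 minus replicate 2, log2), where the median over all probe sets was 0.0091. The corresponding medians were 0.12 in WT and 0.086 in QKD embryos at 30%E and between 0.0051 and 0.030 in the other 3 groups. A fall of the targeted transcripts cannot serve as a check of the labels, because the MOs act on translation and not on the transcript. The study reports, from in situ hybridization and RT-PCR, raised transcript levels of these genes in QKD embryos at early stages. Here *sox2* signals were 82.0 and 82.2 in WT embryos against 35.5 and 51.5 in QKD embryos at 30%E. At 75%E they were 697 and 705 in WT embryos against 3328 and 3347 in QKD embryos. *sox3*, *sox19a* and *sox19b* were higher in both QKD replicates than in both WT replicates at each of the 3 stages.

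**Figure D1:**
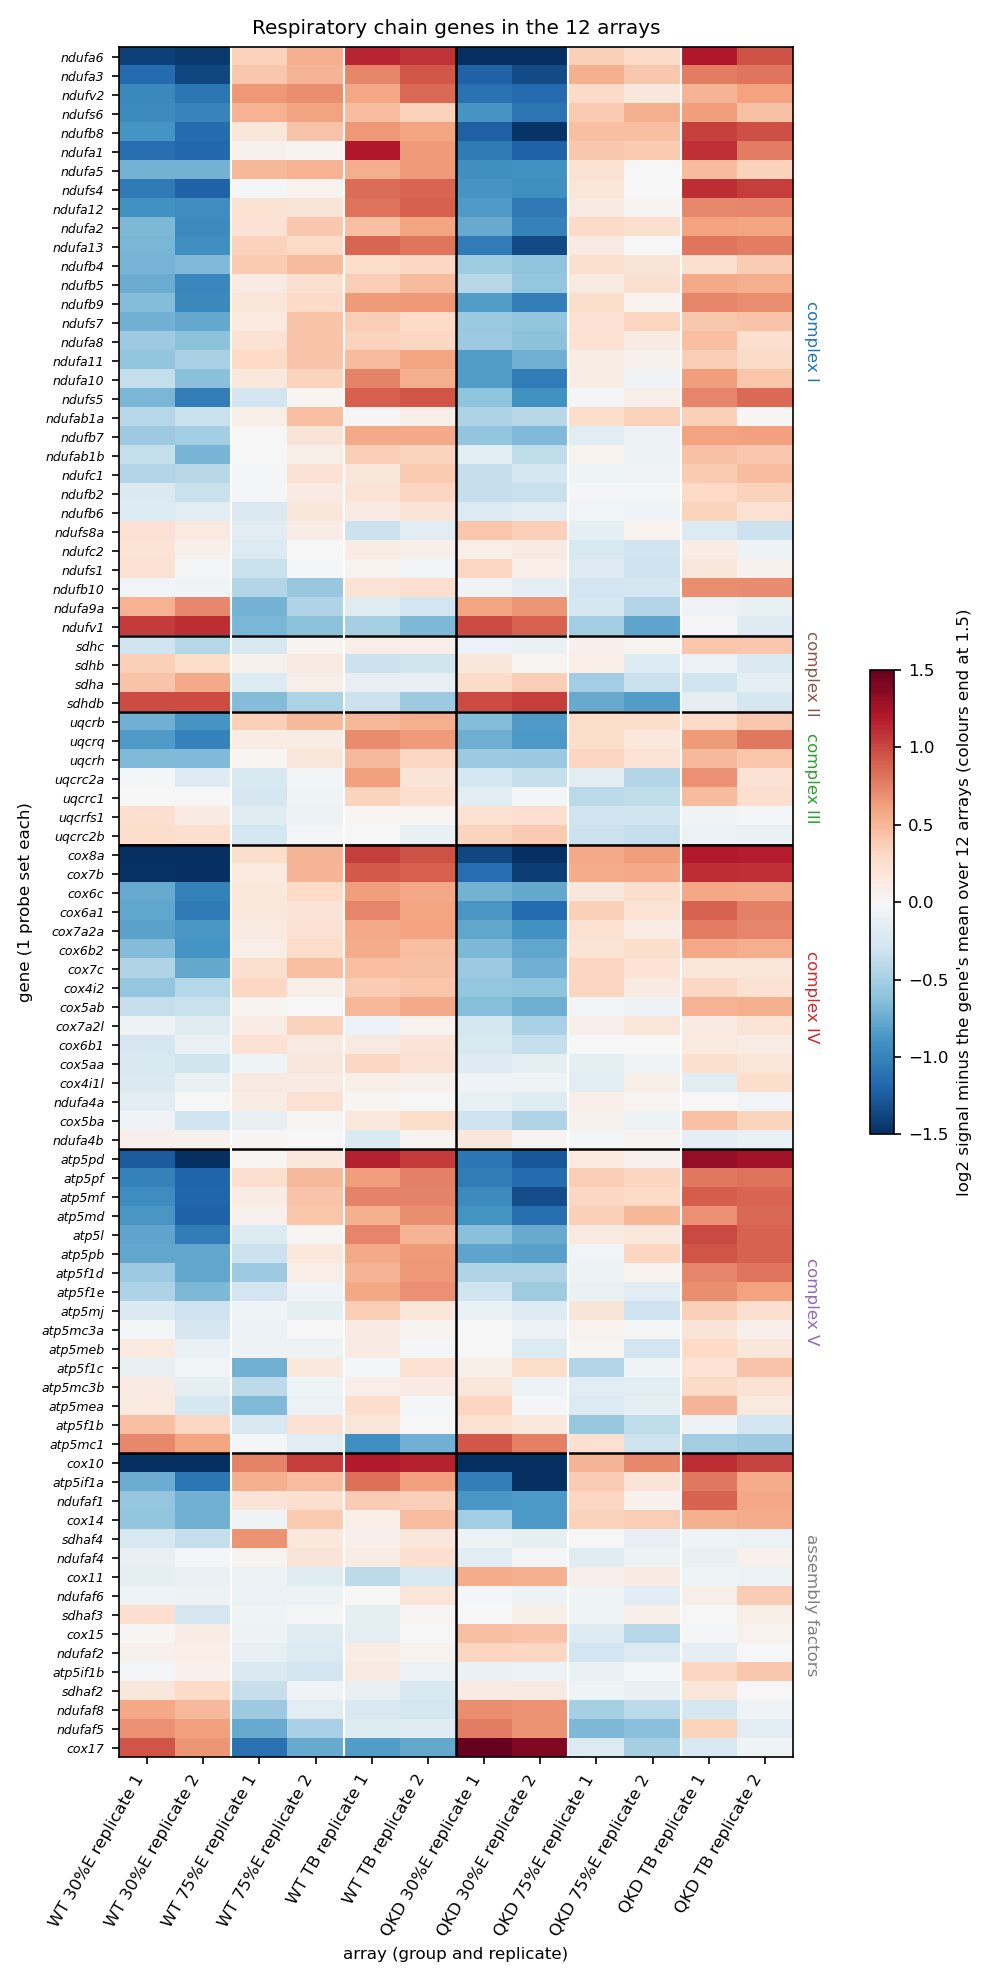
Heat map of the 90 genes (rows, grouped by complex and ordered by the WT change between 30%E and 75%E) in the 12 arrays (columns, WT left of the black line and QKD right of it). Colour gives the log2 signal minus the gene's mean over the 12 arrays, with the scale ending at 1.5; rows differ mainly between 30%E and the later stages, and a few, such as *cox17*, *ndufv1* and *sdhdb*, are high at 30%E and low afterwards.

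Between 30%E and 75%E most respiratory chain genes became more abundant in WT embryos. The test called 52 of the 90 higher at 75%E, where 30.2% of all probe sets were called higher, and 15 lower, where 27% of all probe sets were called lower. The median change of the 90 genes was 0.48 on the log2 scale against 0.089 for all probe sets, and single changes ran from -1.74 to 2.70. With the dimmest probe sets dropped, 52 of 84 members were called higher and 14 lower, beside 37.8% and 36.6% of the probe sets kept. Leaving out WT 75%E replicate 1 moved the number called lower from 15 to 9 and the number called higher from 52 to 55.

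Most of the rises lay among the subunits of complexes I and IV. In complex I, 24 of 31 genes were called higher and 3 lower, with a median change of 0.90. The largest rise was that of *ndufa6*, a supernumerary subunit, meaning one that is needed for assembly or stability and not for electron transfer. Its signals were 87.8 and 90.9 at 30%E and 304 and 350 at 75%E, a change of 1.87 ± 0.11 (SE, n = 2 and 2, adjusted p = 7.8e-08), and the groups lay far apart. *ndufa3*, another supernumerary subunit, went from 156 and 179 to 529 and 570, which is 1.72 ± 0.11 (adjusted p = 1.6e-07).

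Split by role, the 26 supernumerary subunits of complex I held 22 of its 24 rises, with a median of 0.97, whereas the 5 measured core subunits, which bind the flavin and the iron-sulfur clusters, went in both directions. *ndufv2*, which carries an iron-sulfur cluster near the NADH site, was at 158 and 173 at 30%E and at 529 and 546 at 75%E, a change of 1.70 ± 0.11 (adjusted p = 1.6e-07). A second probe set for *ndufv2* gave 1.47. *ndufs7*, which carries the cluster that hands electrons to ubiquinone, changed by 1.03 ± 0.11 (adjusted p = 7.6e-06).

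*ndufv1*, the flavin-binding subunit that takes electrons from NADH and that forms a module with *ndufv2* in the assembled complex, moved the other way. Its signals were 824 and 854 at 30%E and 247 and 259 at 75%E, a change of -1.73 ± 0.12 (adjusted p = 2.1e-07). *ndufs1* and *ndufs8a*, further iron-sulfur subunits, changed by -0.27 ± 0.14 and -0.20 ± 0.12, neither past the test. The other complex I genes called lower were *ndufa9a*, from 886 and 1023 to 379 and 455 (-1.20 ± 0.12, adjusted p = 4.8e-06), and *ndufb10*, from 354 and 359 to 249 and 273 (-0.45 ± 0.09, adjusted p = 0.0013).

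In complex IV, 12 of 16 genes were called higher and 0 lower (0 lower also at an unadjusted p under 0.05, in the same limma fit), with a median of 0.54. *cox8a* and *cox7b*, small nuclear subunits that surround the catalytic core, led. *cox8a* signals were 220 and 247 at 30%E and 844 and 996 at 75%E (1.98 ± 0.14, adjusted p = 2.9e-07), and those of *cox7b* were 358 and 432 and then 1335 and 1721 (1.95 ± 0.14, adjusted p = 3.3e-07). *cox6a1* changed by 1.09 ± 0.13 (adjusted p = 2.1e-05). *ndufa4a*, whose product was first assigned to complex I and is now placed in complex IV, changed by 0.25 ± 0.10, short of the threshold.

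In complex V, 8 of 16 genes were called higher and 2 lower. Of the 8 rises, 2 were among the 4 measured subunits of the F1 head and 6 outside it. *atp5pd*, a subunit of the stalk that holds the head still, went from 145 and 184 to 448 and 488 (1.52 ± 0.12, adjusted p = 9.3e-07), and *atp5pf*, another stalk subunit, changed by 1.47 ± 0.11 (adjusted p = 5.0e-07). In the F1 head, *atp5f1d* (0.44 ± 0.17) and *atp5f1e* (0.39 ± 0.12) were called higher, and *atp5f1b*, the catalytic beta subunit, was called lower at -0.39 ± 0.15 (adjusted p = 0.043). The call of *atp5f1b* was lost without any one of both WT 30%E replicates, WT 75%E replicate 1 or both QKD 30%E replicates, with an adjusted p of up to 0.37. That of *atp5f1d* was lost without any array other than WT 75%E replicate 1, that of *atp5f1e* without WT 30%E replicate 2 or WT 75%E replicate 2, and all 3 were lost in a fit of the compared groups alone. *atp5f1c*, the central shaft, had the largest replicate difference of all 90 genes in any group, with WT signals of 615 and 1130 at 75%E, and was not called.

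The proton-conducting ring of the ATP synthase is built of c subunits, and its 3 measured genes did not share a course. *atp5mc1* signals were 3448 and 3769 at 30%E, 2046 and 2240 at 75%E and 1212 and 1390 at TB. Each step was called lower, at -0.75 ± 0.16 (adjusted p = 0.0015) and -0.72 ± 0.16 (adjusted p = 0.0054); the call of the later step was lost without WT TB replicate 1 (adjusted p = 0.055). The mature c subunit is the same protein whichever gene supplies it in mammals, and the remaining copies *atp5mc3a* and *atp5mc3b* changed between 30%E and 75%E by 0.10 ± 0.11 and -0.22 ± 0.14, neither past the test.

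Complexes II and III did not rise as groups. None of the 4 measured complex II genes was called higher (1 was higher at an unadjusted p under 0.05 in the limma fit) and 2 were called lower. *sdhdb*, a membrane anchor subunit, went from 494 and 495 at 30%E to 159 and 181 at 75%E, a change of -1.54 ± 0.11 (adjusted p = 2.9e-07). *sdha*, the flavoprotein that oxidises succinate, changed by -0.55 ± 0.12 (adjusted p = 0.0023). *sdhb*, the iron-sulfur subunit, and *sdhc*, the other anchor, changed by -0.22 ± 0.12 and 0.26 ± 0.11 without passing the test.

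In complex III, 3 of 7 genes were called higher and 2 lower, with a median of -0.030 that ran from -0.13 to 0.070 when single arrays were left out. The small subunits *uqcrb* (1.22 ± 0.11, adjusted p = 1.6e-06), *uqcrq* (1.04 ± 0.11, adjusted p = 4.9e-06) and *uqcrh* rose. The Rieske iron-sulfur protein gene *uqcrfs1* went from 2719 and 2961 to 2201 and 2358 (-0.32 ± 0.09, adjusted p = 0.012), and *uqcrc2b*, a large core subunit without a redox group, changed by -0.40 ± 0.10 (adjusted p = 0.0062). The call of *uqcrfs1* was lost without WT 30%E replicate 1 or WT 75%E replicate 1 (adjusted p up to 0.091), and that of *uqcrc2b* without WT 75%E replicate 1 (adjusted p = 0.056).

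Of the 16 assembly factors 5 were called higher (31.2%) and 6 lower (37.5%), not far from the shares of all probe sets, with a median of -0.027. *cox10*, which makes the heme O from which the heme of complex IV is derived, had the largest rise of all 90 genes, from 62.7 and 83.5 at 30%E to 423 and 521 at 75%E (2.70 ± 0.15, adjusted p = 4.0e-08). A second probe set for *cox10* gave 1.51. *cox17*, the copper chaperone that delivers copper for complex IV, had the largest fall, from 842 and 1023 to 245 and 317 (-1.74 ± 0.15, adjusted p = 1.5e-06). *cox11*, which inserts copper into the catalytic centre of the same complex, stayed between 52.7 and 56.8 in these 4 arrays.

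The ATPase inhibitors, which block ATP hydrolysis by the synthase, gave different values, with the difference between them not tested. *atp5if1a* went from 224 and 283 to 655 and 684 (1.41 ± 0.17, adjusted p = 2.1e-05), while *atp5if1b* changed by -0.27 ± 0.10 (adjusted p = 0.045), a call lost without any array other than the WT TB replicates, with an additive replicate block, with a variance trend and in a fit of the compared groups alone. *ndufaf5*, a complex I assembly factor that modifies an arginine of a core subunit, went from 112 and 117 to 43.2 and 51.8 (-1.27 ± 0.15, adjusted p = 1.5e-05).

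**Figure D2:**
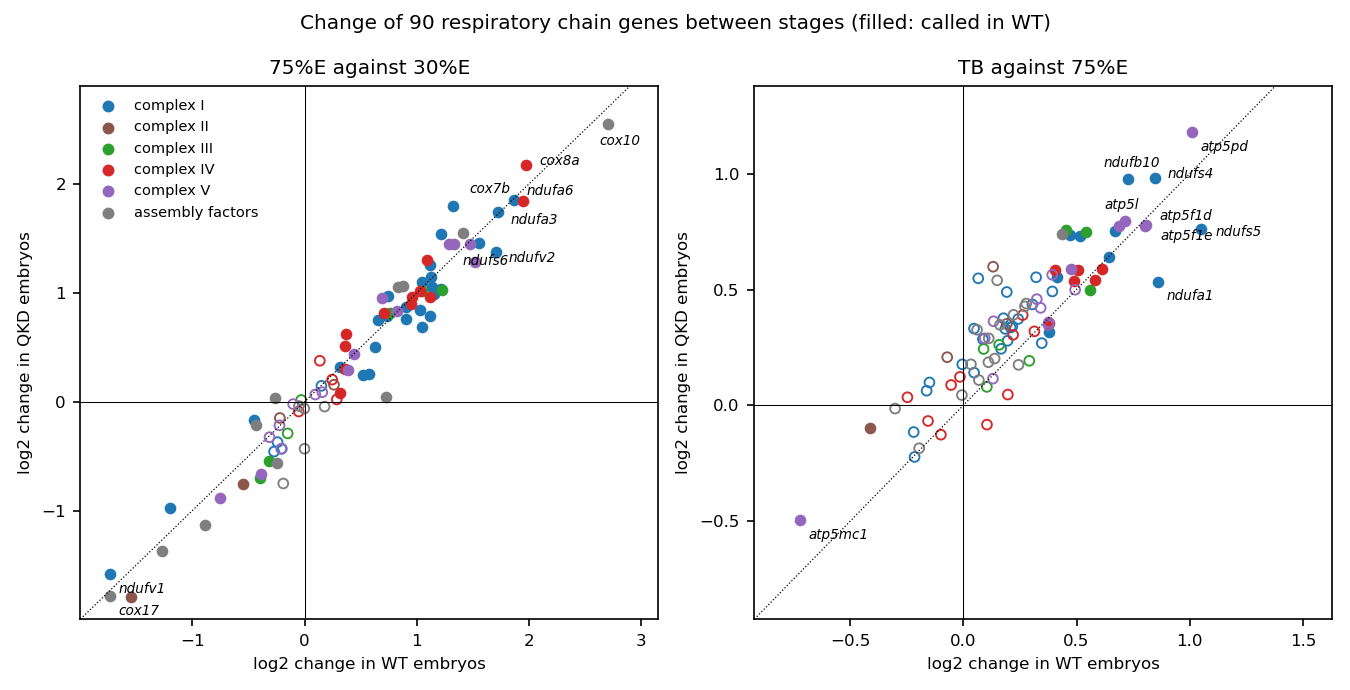
Log2 change of each of the 90 genes between stages in WT embryos (horizontal) and in QKD embryos (vertical), 75%E against 30%E on the left and TB against 75%E on the right; colours give the complex, filled points were called in WT embryos and the dotted line marks equal change. Points lie along the line on the left, from *cox17* and *ndufv1* at the lower end to *cox10* at 2.70 in WT and 2.55 in QKD embryos, and most lie above 0 on both axes on the right.

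From 75%E to TB, calls among these genes again lay mostly upward. In WT embryos 26 of 90 were called higher (14.1% of all probe sets) and 2 lower (13.7% of all probe sets), with a median of 0.22 against -0.033 for all probe sets; the median of the 90 ran from 0.14 to 0.32 when single arrays were left out. This step and the one before it share the WT 75%E arrays, so the calls of one were not counted against those of the other. Leaving out WT 75%E replicate 1 or WT TB replicate 1 brought the number called higher to 16, and leaving out WT 75%E replicate 2 brought it to 35.

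By complex, 10 of 31 genes of complex I, 0 of 4 of complex II (0 also at an unadjusted p under 0.05, in the same limma fit), 3 of 7 of complex III, 6 of 16 of complex IV, 6 of 16 of complex V and 1 of 16 assembly factors were called higher. *ndufs5*, a supernumerary subunit, had WT signals of 533 and 661 at 75%E and 1208 and 1249 at TB (1.05 ± 0.15, adjusted p = 0.00045). *atp5pd* went on from 448 and 488 to 908 and 976 (1.01 ± 0.12, adjusted p = 0.00015). *ndufa1*, which is needed for complex I assembly, changed by 0.86 ± 0.17 (adjusted p = 0.0027), with TB replicates at 123 and 182.

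In complex V, *atp5f1d* and *atp5f1e*, subunits of the F1 head that turn with the shaft, changed by 0.80 ± 0.17 and 0.81 ± 0.12 (adjusted p = 0.0052 and 0.00062). In complex IV, *cox8a* and *cox7b* changed by 0.61 ± 0.14 and 0.58 ± 0.14 (adjusted p = 0.0074 and 0.0099); both calls were lost without WT 75%E replicate 1 or WT TB replicate 1. In complex III, *uqcrq* changed by 0.56 ± 0.11 (adjusted p = 0.0023), *uqcrc1* by 0.45 ± 0.11 (adjusted p = 0.011) and *uqcrc2a* by 0.54 ± 0.18 (adjusted p = 0.045). The call of *uqcrc1* was lost without WT 75%E replicate 1 or WT TB replicate 1 and in a fit of the compared groups alone. The call of *uqcrc2a* was lost without WT TB replicate 1 or any array of WT 30%E, WT 75%E or QKD 30%E (adjusted p up to 0.33), and a second probe set for it gave 0.19.

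*ndufb10* was called lower at the earlier WT step and higher at the later one. Both calls use the WT 75%E arrays, so a deviation of those arrays would enter both. In QKD embryos *ndufb10* was not called at the earlier step, and TB was not tested against 30%E. From 249 and 273 in WT embryos at 75%E it went to 425 and 439 at TB, a change of 0.73 ± 0.09 (adjusted p = 0.00019), with both TB values above those at 30%E. *sdhb* was the member besides *atp5mc1* called lower at this step, with 691 and 725 at 75%E and 529 and 536 at TB (-0.41 ± 0.12, adjusted p = 0.021). Its call was lost without WT 75%E replicate 2, WT TB replicate 1 or WT TB replicate 2 (adjusted p up to 0.10). Among the assembly factors *ndufaf5* alone was called higher, by 0.44 ± 0.15 (adjusted p = 0.047), a call lost after median centring or a second quantile normalization, and without WT 75%E replicate 1 or any array of WT 30%E, WT TB, QKD 30%E or QKD 75%E (adjusted p up to 0.24). *cox17*, *ndufv1* and *sdhdb*, low at 75%E, changed by 0.14 ± 0.15, 0.07 ± 0.12 and 0.13 ± 0.11, and none of them passed the test.

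Of the paralogous copies, 4 pairs were called higher in both copies. Between 30%E and 75%E in WT embryos *cox5ab* (0.37 ± 0.09, adjusted p = 0.0040) and *cox5aa* (0.32 ± 0.10, adjusted p = 0.020) both rose, and so did the acyl carrier proteins *ndufab1a* (0.66 ± 0.14) and *ndufab1b* (0.57 ± 0.13). *cox6b2* signals were 1537 and 1808 and then 3040 and 3434 (0.95 ± 0.11, adjusted p = 1.5e-05), and those of *cox6b1*, near the bottom of the array, were 18.3 and 20.3 and then 23.9 and 25.4 (0.36 ± 0.10, adjusted p = 0.0082). *cox7a2a* changed by 1.02 ± 0.10 and *cox7a2l*, whose product takes part in joining complexes III and IV, by 0.36 ± 0.12 (adjusted p = 2.9e-06 and 0.020). *cox4i2* changed by 0.70 ± 0.11 (adjusted p = 0.00021) and *cox4i1l* by 0.29 ± 0.14. *uqcrc2a* and *uqcrc2b* changed by -0.03 ± 0.18 and -0.40 ± 0.10. *atp5mea* and *atp5meb* changed by -0.31 ± 0.21 and -0.10 ± 0.14. *ndufa4b*, among the dimmest members, changed by -0.05 ± 0.11. The call of *cox5aa* was lost without either WT 30%E replicate or WT 75%E replicate 2, that of *cox7a2l* without WT 30%E replicate 2 or WT 75%E replicate 2, both in a fit of the compared groups alone, and that of *cox6b1* without WT 30%E replicate 1 or after a second quantile normalization. The difference between copies of a pair was not tested.

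The QKD course was measured on other arrays than the WT course, but the replicates of a stage deviated together across the 2 courses (correlations of 0.60, 0.49 and 0.52 over the members), so the courses are not independent. From 30%E to 75%E 48 of 90 genes were called higher (30.9% of all probe sets) and 18 lower (29.4% of all probe sets), with a median of 0.41. Of the genes called higher in either course, 47 were shared, which is 90.4% of the 52 in WT and 97.9% of the 48 in QKD embryos; over all probe sets the shares were 81.9% and 79.9%. Of those called lower 12 were shared, 80% of the 15 in WT and 66.7% of the 18 in QKD embryos, where all probe sets gave 90.8% and 83.5%. No member was called in opposite directions. Opposite calls were rare over all probe sets too, at 48, so their absence here does not set the members apart.

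The leading genes had the same direction and nearly the same size in QKD embryos. *cox10* changed by 2.55 ± 0.15, *cox8a* by 2.17 ± 0.14, *ndufa6* by 1.85 ± 0.11, *ndufv1* by -1.58 ± 0.12, *cox17* by -1.79 ± 0.15 and *sdhdb* by -1.80 ± 0.11. The 6 genes called lower in QKD embryos alone were *ndufc2*, *ndufs1*, *ndufs8a*, *uqcrc1*, *cox11* and *cox15*. A call in QKD embryos alone does not test whether the courses differ. Mean log2 signals of *cox15* went from 7.13 to 6.94 in WT embryos and from 7.51 to 6.76 in QKD embryos. Those of *cox11* were 5.77 at both stages in WT embryos and went from 6.44 to 6.01 in QKD embryos. The test of the difference itself, whether the QKD effect at 75%E differed from that at 30%E, called 0 of 90 members (7 at an unadjusted p under 0.05; limma) where 4.56% of all probe sets were called.

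From 75%E to TB 39 of 90 genes were called higher in QKD embryos (12.1% of all probe sets) and 1 lower (10.2% of all probe sets), with a median of 0.35 against -0.0031 for all probe sets. The shared rises numbered 25, 96.2% of the 26 in WT and 64.1% of the 39 in QKD embryos, where all probe sets gave 62.6% and 73.2%, and *atp5mc1* was called lower in both. The QKD effect at TB differed from that at 75%E in 0 of 90 genes (3 at an unadjusted p under 0.05; limma) where 0.677% of all probe sets were called. The number called higher in QKD embryos ranged from 19 to 25 when a QKD array of 75%E or TB was left out.

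Against this course, the difference between QKD and WT embryos labelled with the same stage was small. The study reports slowed epiboly in QKD embryos, which had not finished it when controls reached tailbud. The labels do not say whether the embryos were matched by form or by time. A delay of QKD embryos therefore cannot be told apart from other differences at a stage. No member had a ratio of mean signals over 2 in either direction at any stage, where 1.76%, 1.88% and 1.7% of all probe sets did at 30%E, 75%E and TB. At 30%E 1 gene was called lower (2.92% of all probe sets) and 2 higher (5.14% of all probe sets). At 75%E 2 were lower (3.9%) and 1 higher (4.49%), and at TB 0 lower (3.21%; 0 also at an unadjusted p under 0.05, limma) and 3 higher (3.15%). As shares of the 90 genes these counts were below those of all probe sets at 30%E and 75%E, and the 3 higher at TB (3.33%) were close to it. The median QKD difference of the 90 genes was 0.0051, -0.026 and 0.074 at the 3 stages, against -0.025, -0.017 and 0.013 for all probe sets. Leaving out single arrays moved the medians of the 90 genes across 0 at 30%E (-0.039 to 0.060) and 75%E (-0.12 to 0.027), and between 0.057 and 0.092 at TB. The intervals were not narrow: the 95% confidence intervals of the 90 genes reached from -0.75 to 0.97 at 30%E, from -0.80 to 0.92 at 75%E and from -0.60 to 0.98 at TB.

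With WT and QKD samples of a stage paired by their replicate number, 5 members were called lower and 5 higher at 30%E (5.23% and 9.02% of all probe sets), 5 lower and 2 higher at 75%E (7.80% and 9.11%) and 0 lower and 5 higher at TB (6.34% and 7.26%). The calls of the unpaired fit all remained. The paired fit added *atp5if1a*, *ndufa10*, *ndufa13* and *ndufb8* lower and *cox15*, *cox7b* and *ndufb5* higher at 30%E, *atp5f1b*, *sdha* and *sdhaf4* lower and *ndufa1* higher at 75%E, and *atp5pb* and *ndufb8* higher at TB.

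**Figure D3:**
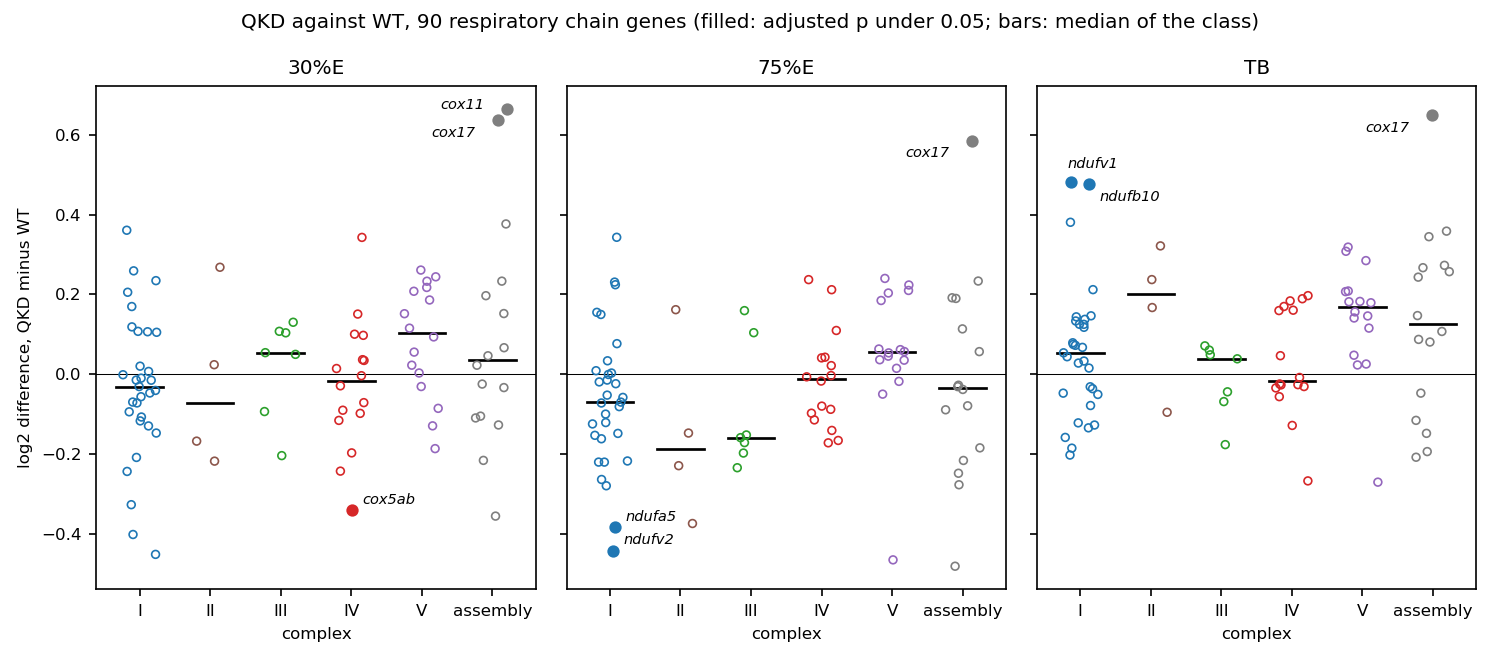
Log2 difference between QKD and WT embryos for each of the 90 genes at 30%E, 75%E and TB, by complex. Filled and named points had an adjusted p under 0.05 and bars mark the median of the class; most points lie near 0, those of complex V mostly above it, and *cox17* is the only gene called at all 3 stages, at 0.64, 0.59 and 0.65.

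*cox17* was the one member called at every stage. At 30%E its signals were 842 and 1023 in WT embryos against 1391 and 1498 in QKD embryos, a difference of 0.64 ± 0.15 (adjusted p = 0.024). At 75%E they were 245 and 317 against 378 and 463 (0.59 ± 0.15, adjusted p = 0.036), and at TB 299 and 314 against 454 and 509 (0.65 ± 0.15, adjusted p = 0.026). Both QKD replicates were above both WT replicates at each stage, and the QKD effect did not pass the test for a difference between any pair of stages; the interval of TB against 30%E ran from -0.46 to 0.48. With 1 array left out, the call was lost without WT 30%E replicate 2 or either QKD 30%E replicate at 30%E, without any TB array at TB, and without WT 75%E replicate 1 or any array of WT TB, QKD 30%E or QKD 75%E at 75%E (adjusted p up to 0.18, 0.17 and 0.23).

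*cox11* was higher in QKD embryos at 30%E, with 54.0 and 55.5 in WT embryos against 86.2 and 87.5 in QKD embryos (0.67 ± 0.10, adjusted p = 0.0013). This call held in all 21 alternatives, with an adjusted p of up to 0.017. At 75%E and TB the QKD replicates were also above those of WT, by 0.23 ± 0.10 and 0.24 ± 0.10, without passing the test. *cox5ab*, a matrix-side subunit of complex IV, was lower in QKD embryos at 30%E, with 414 and 419 in WT embryos against 318 and 341 in QKD embryos (-0.34 ± 0.09, adjusted p = 0.041), and differed by -0.01 ± 0.09 at TB. Its call was lost when any array other than the WT 75%E replicates was left out (adjusted p up to 0.29).

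At 75%E the genes called lower were a pair of complex I subunits. *ndufv2* had 529 and 546 in WT embryos against 381 and 410 in QKD embryos (-0.44 ± 0.11, adjusted p = 0.033), and a second probe set gave -0.41 with an adjusted p of 0.034. *ndufa5*, a supernumerary subunit of the matrix arm, had 410 and 417 against 293 and 343 (-0.38 ± 0.10, adjusted p = 0.044). In both genes the groups did not overlap. Both calls were lost under a second quantile normalization, and without either WT 75%E replicate or QKD 75%E replicate 2; that of *ndufv2* was also lost without QKD 75%E replicate 1 or either QKD 30%E replicate, and that of *ndufa5* without any array other than QKD 75%E replicate 1 (adjusted p up to 0.20 and 0.30).

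At TB the genes called higher besides *cox17* were also complex I subunits. *ndufb10* had 425 and 439 in WT and 601 in both QKD replicates (0.48 ± 0.09, adjusted p = 0.010), and *ndufv1* had 249 and 282 against 348 and 393 (0.48 ± 0.12, adjusted p = 0.035). *ndufv2*, whose product sits beside that of *ndufv1*, differed by -0.16 ± 0.11 at TB, short of the threshold. The call of *ndufb10* was lost without WT TB replicate 1 or either QKD TB replicate (adjusted p up to 0.076), and that of *ndufv1* without any array of 30%E or TB (adjusted p up to 0.23).

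The QKD effect at TB differed from that at 30%E in 2 of 90 genes, where 5.73% of all probe sets were called. *ndufb8* had 284 and 341 in WT embryos against 227 and 271 in QKD embryos at 30%E (-0.33 ± 0.13), and 949 and 990 against 1237 and 1288 at TB (0.38 ± 0.13). The order of the groups was thus reversed, although neither effect was called by itself in the unpaired fit. The difference of the effects was 0.71 ± 0.18 (adjusted p = 0.047). *ndufb10* had an effect of -0.05 ± 0.09 at 30%E and a difference of effects of 0.52 ± 0.13 (adjusted p = 0.042). Both calls depended on single arrays, and that of *ndufb8* also on fitting all 6 groups together. The paired fit added *ndufv1* and *ndufaf1* to these, and called 3 members, *cox15*, *ndufb8* and *sdhaf4*, for 75%E against 30%E where the unpaired fit called 0 (4.56% of all probe sets). The paired fit also called more of all probe sets in QKD against WT embryos. Its share of all probe sets for these differences is not given here, so the added calls are not read as a result about the members.

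**Figure D4:**
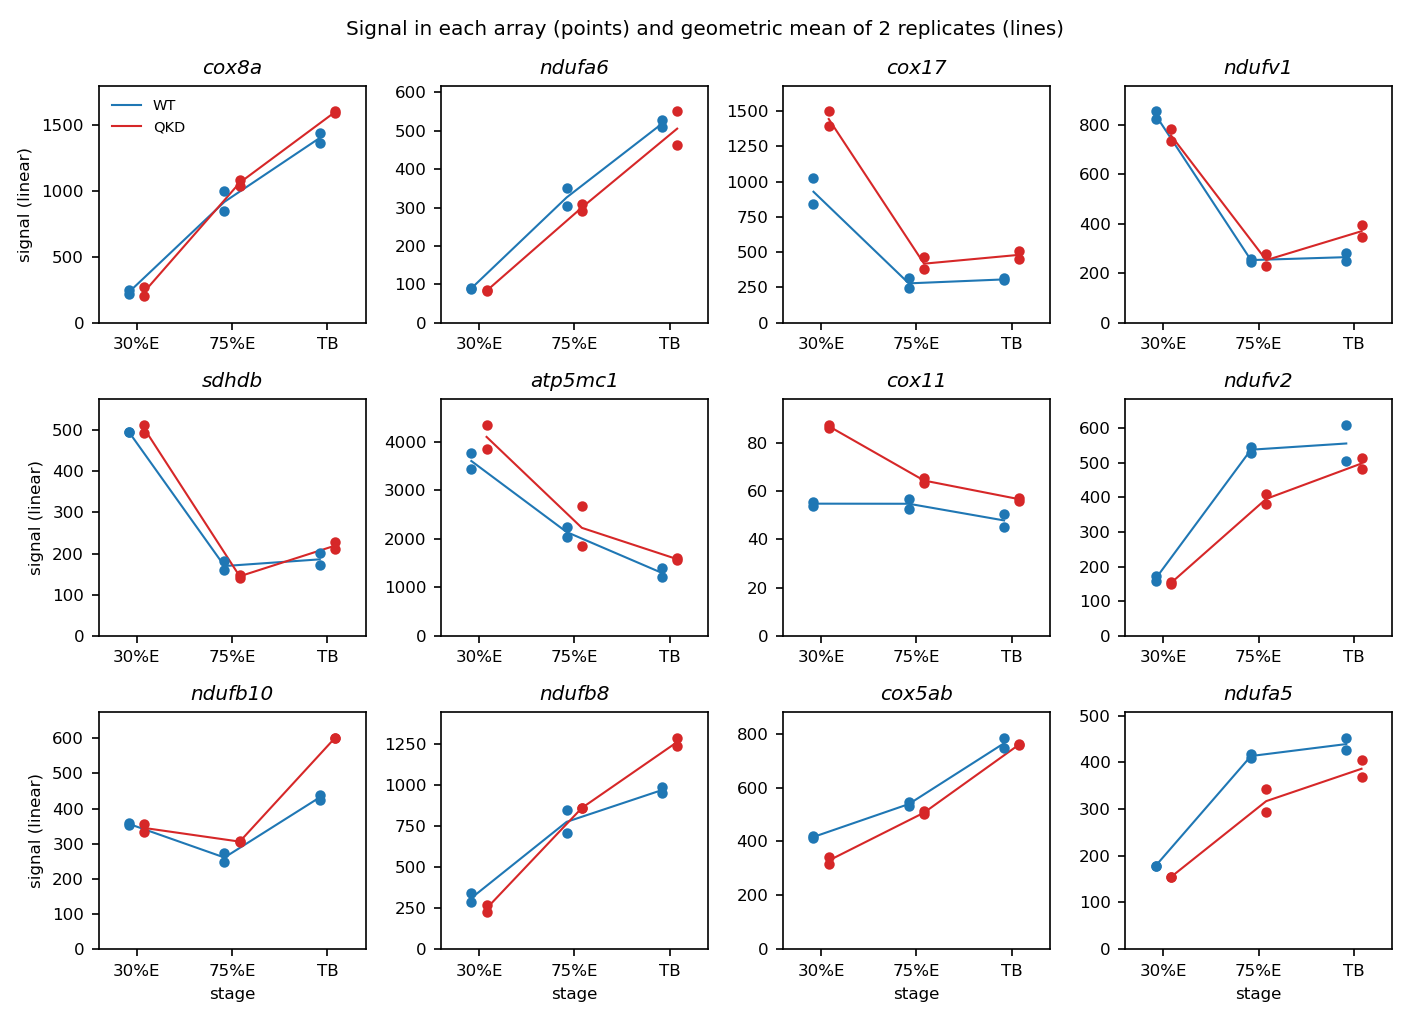
Linear signal (vertical axis, from 0) of 12 genes at 30%E, 75%E and TB in WT (blue) and QKD (red) embryos; points are the 2 replicates and lines join their geometric means. The stage changes of *cox8a*, *ndufa6*, *cox17*, *ndufv1* and *sdhdb* are larger than the gap between the lines, and in *cox17* the QKD points lie above the WT points at each stage.

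Fitted on the groups compared alone, the calls of *cox5ab* at 30%E, of *cox17*, *ndufv2* and *ndufa5* at 75%E and of *ndufv1* at TB were lost, and those of *cox11* and *cox17* at 30%E and of *cox17* and *ndufb10* at TB were kept.

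Averaged over the 3 stages with equal weight, a comparison added after the values were seen, 6 members were lower in QKD embryos (7.39% of all probe sets) and 5 higher (9.14% of all probe sets). All 6 lower genes but *atp5f1b* (-0.31 ± 0.09) were complex I subunits, *ndufa10*, *ndufa11*, *ndufa13*, *ndufa5* and *ndufv2*, with differences from -0.26 to -0.24. The genes called higher were *cox17* (0.62 ± 0.09), *cox11* (0.38 ± 0.06), *atp5l* (0.26 ± 0.07), *sdhc* (0.25 ± 0.06) and *ndufb10* (0.22 ± 0.05), the last also a complex I subunit. Complex I as a class was not shifted in this comparison: of its 31 genes 16 were above 0 and 15 below, with a median of 0.0052. The calls of *cox17*, *cox11*, *ndufb10*, *ndufa11* and *ndufa5* held without any 1 of the 12 arrays; that of *sdhc* was lost without WT 30%E replicate 2, and those of *atp5f1b*, *atp5l*, *ndufa10*, *ndufa13* and *ndufv2* without any one of several arrays from all 3 stages (adjusted p up to 0.087, 0.089, 0.12, 0.11 and 0.078). A second probe set for *atp5l* gave -0.099 by itself, and the average of both gave 0.082. In WT embryos this second probe set changed by -0.023 from 30%E to 75%E and by 0.10 from 75%E to TB. It was not called at either step, whereas the brightest probe set was called higher at both. Within stages the complex V genes were mostly above 0 in QKD embryos, 12, 13 and 15 of 16 at 30%E, 75%E and TB. Of all 15502 probe sets 6871, 7187 and 8260 were above 0, and of all 90 members 46, 37 and 60. The complex V medians were 0.10, 0.055 and 0.17, and no complex V gene was called at any stage. At an unadjusted p under 0.05 in limma there were 0 at 30%E, 1 at 75%E, which was lower, and 1 at TB, which was higher. With single arrays left out the complex V median ran from -0.0030 to 0.20 at 30%E, from -0.052 to 0.18 at 75%E and from 0.12 to 0.17 at TB.

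Other genes of energy metabolism gave the setting for the course of WT embryos between 30%E and 75%E, a step at which 30.2% of all probe sets were called higher and 27% lower. Of 11 measured genes for cytochrome c, cytochrome c1 and carriers, 4 were called higher (36.4%) and 0 lower (0 also at an unadjusted p under 0.05; limma), among them the cytochrome c gene *cycsb* at 0.84 and *etfdh*, which feeds electrons from fat oxidation to ubiquinone, at 2.38. Assembly factors outside the symbol rule mostly fell, with 10 of 18 lower and 3 higher. *coa8* changed by -2.60 and *uqcc3*, a complex III assembly factor, by -2.33, while *atpaf1*, a chaperone for the F1 head, rose by 1.15. In the citric acid cycle 7 of 18 genes were higher and 7 lower, and *mdh2*, mitochondrial malate dehydrogenase, changed by -1.45.

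Glycolysis went mainly down, with 2 of 26 genes higher and 15 lower, including *pgk1* at -2.34 and *tpi1a* at -2.86, whereas the hexokinase gene *hk1* rose by 3.50. Of 59 mitochondrial ribosomal protein genes 31 were higher and 13 lower, with a median of 0.38, and at TB against 75%E, where 14.1% of all probe sets were called higher, 19 were higher and 0 lower (2 lower at an unadjusted p under 0.05; limma). Of 18 import genes 3 were higher and 4 lower at the earlier step and 8 and 0 at the later (0 lower also at an unadjusted p under 0.05). Of 16 regulators of mitochondrial genes 6 were higher and 1 lower, with *gabpb2a*, a subunit of nuclear respiratory factor 2, at 2.07.

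In QKD against WT embryos calls in these lists were 0 to 3 per list, stage and direction, except for the import genes at 75%E, of which 5 of 18 were higher (4.49% of all probe sets) and 0 lower (0 also at an unadjusted p under 0.05; limma), from 0.38 for *tomm20a* to 0.53 for *tomm40l*. *tomm7*, part of the outer membrane translocase, was higher at 30%E (0.58) and 75%E (0.48), and *timm13* at 75%E (0.50) and TB (0.66). Of the 18 citric acid cycle genes, 3 were lower at 30%E (2.92% of all probe sets), namely *dldh* (-0.99), *fh* (-0.53) and *ogdhb* (-0.48). At TB *dldh* was again lower (-0.53), and *idh3a* (0.55) and *idh2* (0.46) were higher.

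**Figure D5:**
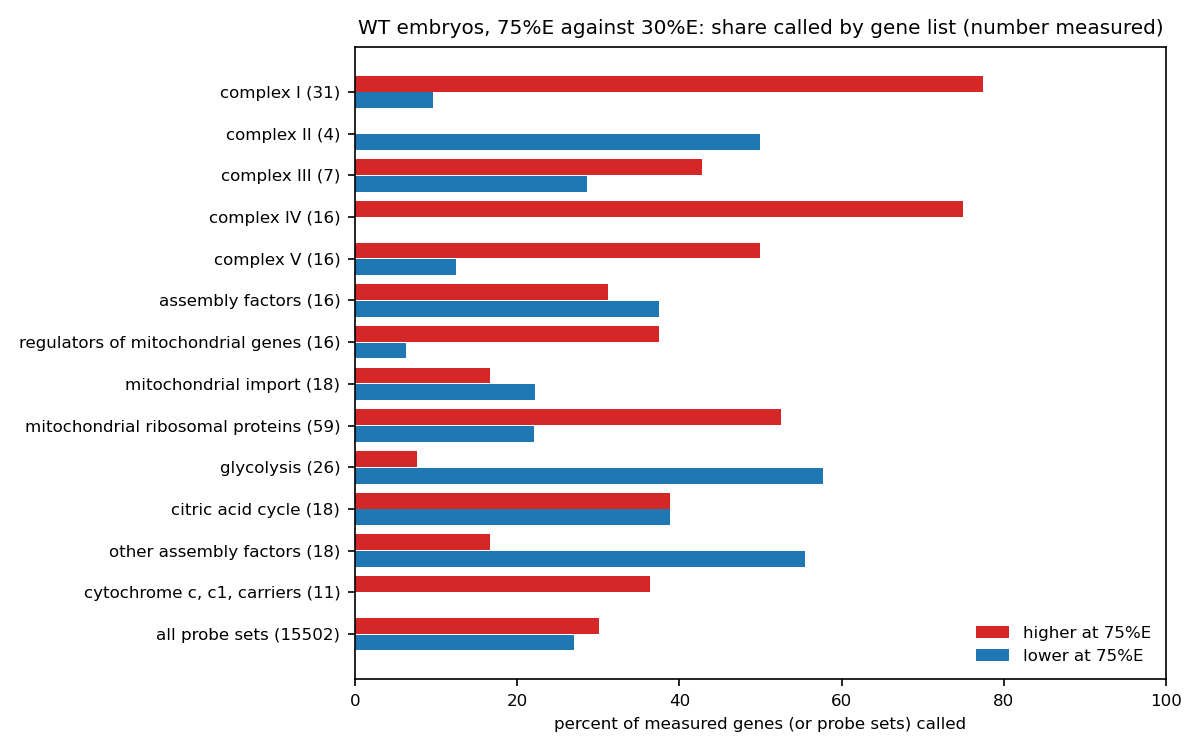
Percent of the measured genes of each list called higher (red) or lower (blue) at 75%E than at 30%E in WT embryos, for the classes of respiratory chain genes, for other lists of mitochondrial and energy genes and for all 15502 probe sets, with the number measured in brackets. Complexes I and IV have the highest shares called higher, 77.4% and 75%, beside 30.2% of all probe sets, and glycolysis the highest share called lower, 57.7%.

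Markers of the extraembryonic layers moved over the same stages. The summed signal of 9 enveloping layer markers was between 9290 and 10856 in WT embryos at 30%E and between 30199 and 32356 at 75%E. Of the 9, 7 were called higher at this step, where 30.2% of all probe sets were called higher and 27% lower. That of 7 yolk syncytial layer markers was between 6496 and 7029 and then between 12525 and 12569, with 6 higher and 1 lower. In QKD embryos at 30%E the enveloping layer sum was between 6236 and 8542, below both WT replicates, with 3 of 9 markers lower than in WT embryos. That of the yolk syncytial layer was between 6000 and 6973, which overlaps the WT range, with 2 of 7 lower, where 2.92% of all probe sets were called lower. The summed signals at 75%E were between 29941 and 31791 and between 11537 and 12202 in QKD embryos. Of the markers of the embryo proper, 4 of 6 neural plate and 5 of 7 mesendoderm markers were called higher and 2 and 1 lower in WT embryos at 75%E, and of 5 germ cell markers 0 were higher (0 also at an unadjusted p under 0.05; limma) and 3 lower. In QKD against WT embryos at 30%E, 3 of 7 mesendoderm markers were lower and 1 higher, and 2 of 6 neural plate markers were lower and 1 higher. The mesendoderm sum was between 4075 and 4725 in QKD and between 5710 and 6544 in WT embryos. The neural plate sum was higher in QKD embryos, between 9369 and 9404 against 7583 and 7825. That list holds *sox2* and *sox3*, which the MOs target. At 30%E *sox3* signals were 3622 and 4041 in WT embryos against 5826 and 6167 in QKD embryos. The neural plate sum and calls in QKD embryos therefore cannot be read apart from the targeted genes. Lower calls at 30%E were thus found in lists of the extraembryonic layers and of the embryo proper, and the lists were not tested against each other. RMA gives no value of 0, so a marker without transcript cannot be told from a dim one. The part of these layers in the values of the respiratory chain genes was not tested.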

How the data were processed

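Affymetrix zebrafish arrays were read from the series table of deposited intensity values, which the authors obtained from the scans by RMA (background correction, quantile normalization and probe summary) and deposited on a linear scale. The RMA software, its version and scan dates are not given in the sources used here. Intensities were turned into log2 values, and 15502 probe sets were tested after removal of the 115 controls. Platform symbols, checked against RefSeq, gave 1 gene for 10795 of these, several for 135 and none for 4572; probe sets of several genes were not named.

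Means of 6 groups were fitted over 12 arrays with limma 3.58.1 (R 4.3.3, lmFit and eBayes, 6 residual and 5.11 prior degrees of freedom) with Benjamini-Hochberg adjustment over all tested probe sets and a threshold of 0.05. The script was tested on simulated data first. The precision is limited by 2 arrays per group. Contrasts were QKD against WT per stage, steps between stages, and differences between QKD effects. Replicate numbers paired WT and QKD samples of the same stage, as judged from the data alone: their deviations from the group means correlated at 0.615 (30%E), 0.443 (75%E) and 0.488 (TB), against -0.0835 to 0.183 for other pairs of groups.

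Named genes were those called between QKD and WT embryos, the 2 largest called rises and falls per complex and WT step, core and catalytic subunits, called differences between QKD effects, and paralog pairs; a few more were named after their values were seen. Members and lists were chosen with earlier results of these data known. The symbol *dld* was taken out of the citric acid cycle list because it names a Notch ligand in zebrafish. Alternatives covered centring, a second quantile normalization, a prior variance that follows the mean level, removal of the dimmest probe sets (below percentile 40 of their mean), fits of the compared groups alone, replicate blocks, all probe sets of a gene, and each array left out. Figures were drawn with matplotlib.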

Additional observations from a re-analysis of the deposited data

Results flagged for a closer look

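*ndufb10* and *ndufb8*, supernumerary subunits of complex I, were flagged because the QKD effect at TB differed from that at 30%E by the limma test of the difference itself. They were 2 of 90 members (2.22%), below the 5.73% of all probe sets called in this test. For *ndufb10* the difference of the effects was 0.52 ± 0.13 on the log2 scale (adjusted p = 0.042), and for *ndufb8* it was 0.71 ± 0.18 (adjusted p = 0.047). The call of *ndufb10* was lost without any array other than the WT 75%E replicates (adjusted p up to 0.16). That of *ndufb8* was lost without WT 30%E replicate 1, QKD 30%E replicate 2 or any array of WT TB, QKD 75%E or QKD TB (adjusted p up to 0.19). Both were called in the paired fit.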

How the results depend on the processing

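Sign changes were checked for calls of QKD against WT, for called differences between QKD effects, and for the leading calls of each WT step. None of these calls changed sign under any alternative, but several medians near 0 did when single arrays were left out. So did the median QKD difference of the 90 genes at 30%E (-0.036 after median centring, -0.0060 after a second quantile normalization) and the WT change of complex III from 30%E to 75%E (0.14 after that normalization, 0.062 with all probe sets of a gene averaged). Fitting only the groups compared gave 0 members lower in QKD embryos at 30%E, 0 lower and 0 higher at 75%E, 1 lower in WT embryos and 0 lower in QKD embryos from 75%E to TB; a second quantile normalization gave 0 lower in QKD embryos at 75%E and 0 from 75%E to TB. With the replicate number as an additive block, 3 were lower in QKD embryos at 30%E and 4 at 75%E. With the block within each stage, the pairing gave 5 lower and 5 higher at 30%E. At 75%E it gave 5 lower and 2 higher, and at TB 5 higher. Over the 3 stages it gave 10 higher. The QKD effect then differed in 3 members between 75%E and 30%E, and in 4 between TB and 30%E. The other counts stayed within 1.5 times. Shares of all probe sets are not given beside the counts in this paragraph, so their moves are not read as a result about the members.

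Leaving out each array in turn gave, in QKD against WT embryos, 0 to 1 lower and 1 to 2 higher at 30%E, 0 to 2 lower and 0 to 2 higher at 75%E, 0 to 3 higher at TB, and 2 to 6 lower and 3 to 9 higher over the 3 stages. It gave 9 to 19 lower and 47 to 55 higher from 30%E to 75%E in WT embryos and 15 to 19 lower and 44 to 49 higher in QKD embryos. From 75%E to TB it gave 0 to 2 lower and 16 to 35 higher in WT embryos and 0 to 1 lower and 19 to 45 higher in QKD embryos. Differing QKD effects numbered 0 to 1 (75%E against 30%E) and 0 to 2 (TB against 30%E). The cause of these moves was not tested, and each of these fits also had fewer arrays. With 2 arrays per group, differences between QKD and WT embryos near 0.4 on the log2 scale lay close to the threshold.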
